A study of Mus musculus with 8 samples.

Results

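The replication-dependent histone genes encode the core histones H2A, H2B, H3 and H4, around which DNA is wound in nucleosomes, and the linker histone H1. Their transcripts were followed here in mouse embryonic stem (ES) cells before and after treatment with retinoic acid (RA). A gene was a member when the array named it *Hist1h*, *Hist2h*, *Hist3h* or *Hist4h* followed by the histone class, and the probe with the highest mean signal over all arrays stood for it. This rule gave 49 genes, read from 54 probes, of the 36406 gene or transcript names on the array. They comprise 6 H1, 14 H2A, 12 H2B, 8 H3 and 9 H4 genes, of which 36 lie in the *Hist1* cluster, 9 in *Hist2*, 3 in *Hist3* and 1 in *Hist4*.

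All cells were of 1 line, E14Tg2A.4, a feeder-independent ES cell line, and the labels name no transgene or knockdown for these samples. The untreated group was 4 samples of self-renewing cells. The RA-treated group was 4 samples taken 72 h after RA was added, at 1 µM all-trans RA in medium lacking leukemia inhibitory factor per the study's methods, so withdrawal of this factor and RA cannot be told apart. Total RNA was primed with oligo-dT and labelled with Cy3 on 1-colour arrays, so a transcript had to be primed from a stretch of A residues to be measured, and the signal is not the whole pool of histone mRNA. In bulk RNA of this kind, fewer cells that express a gene and less RNA per cell cannot be told apart.

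Replication-dependent histone genes are transcribed mainly in S phase, when new DNA has to be packaged, and many lie side by side in clusters. Their mRNAs are the known exception among animal mRNAs in that they end in a conserved stem-loop and not in a poly(A) tail. The stem-loop is bound by SLBP, and the cut that forms the end needs the U7 snRNP. Some of these genes also yield polyadenylated transcripts that run past the stem-loop, which have been described in differentiating cells. Replication-independent histone genes, such as *H3f3a* and *H2afz*, yield ordinary polyadenylated mRNAs outside S phase as well.

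The probes show which part of these transcripts was read. The stem-loop letters of 8 member probes come first, because they mark probes that hold the place where a mature histone mRNA ends. In 6 of the 8 the probe stops within 6 bases of the last of these letters or inside the stem-loop, but 48 of the 60 bases of *Hist1h2ae* and 38 of those of *Hist2h2aa1* lie past it, so these 2 mainly hold sequence beyond the mature end. Each line gives 30 bases of the probe from 5′ to 3′. Capitals mark the conserved letters of the histone stem-loop, with any base allowed where functional stem-loops vary, or, for *Hist1h2ab* and *Hist1h2ae*, the part of it that the probe holds.
Hist1h2ab: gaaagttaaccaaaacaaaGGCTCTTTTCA
Hist1h2ae: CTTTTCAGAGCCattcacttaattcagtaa
Hist2h2aa1: taaaaaGGCTCTTTTCAGAGCCacccactg
Hist2h2bb: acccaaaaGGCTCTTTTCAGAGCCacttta
Hist1h3a: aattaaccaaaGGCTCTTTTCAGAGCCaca
Hist1h3g: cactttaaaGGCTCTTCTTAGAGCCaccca
Hist1h3i: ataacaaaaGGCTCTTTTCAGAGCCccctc
Hist1h4m: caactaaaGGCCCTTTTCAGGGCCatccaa

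The whole stem-loop was found in 6 of 55681 probes (0.0108%), and all 6 are members. Of the other members, 12 have a probe that starts at least 480 bases into the transcript, or at least 1000 bases for H1, and holds no stem-loop. These are called late probes here, and 29 are called body probes. Both limits were set after the probe sequences had been read. A transcript has to reach that far to be read by a late probe. The poly(A) signal AATAAA or ATTAAA was found in 3 of 14 late probes, second probes of a gene included, against 13.7% of all 55681 probes. The array design gives the second probe of *Hist1h4i*, one of the 3, no genome position, and the letters around its signal are those of the common mouse B1 repeat, so neither the signal nor the value of this probe is read as that of *Hist1h4i*. The next lines give the others, with the signal in capitals.
Hist1h2be: gtactgttcattATTAAAgcattcctgatt
Hist3h2ba: gttcataatggtattAATAAAtttggttca

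Many H2A genes cannot be told apart by their probes. The probe of *Hist1h2ah*, which lies at chr13:22127035-22127094 (- strand) on mm9, covers the end of the coding sequence and its last 3 bases are the stop codon. Those of *Hist1h2ak*, *Hist1h2an*, *Hist1h2af* and *Hist2h2aa2* cover the same place. In the next lines the capitals mark bases unlike *Hist1h2ah* at the same place, over the 54 bases compared.
Hist1h2ah: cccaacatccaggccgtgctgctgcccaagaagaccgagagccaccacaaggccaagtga
Hist1h2ak: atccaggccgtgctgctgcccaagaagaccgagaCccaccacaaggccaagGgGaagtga
Hist1h2an: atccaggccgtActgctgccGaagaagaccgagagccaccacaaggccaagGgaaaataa
Hist1h2af: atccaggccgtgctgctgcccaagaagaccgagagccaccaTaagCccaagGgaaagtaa
Hist2h2aa2: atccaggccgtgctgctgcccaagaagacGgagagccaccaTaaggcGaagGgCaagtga
They differ from *Hist1h2ah* at 3, 3, 3 and 5 of 54 bases, so the values of these probes are uncertain as values of single genes. In all, 13 of the 49 member probes list the transcripts of more than 1 histone gene. Besides those shown, they are the probes of *Hist1h2bm*, *Hist1h2bq*, *Hist1h3d*, *Hist1h4c*, *Hist1h4d*, *Hist1h4j*, *Hist1h4k* and *Hist2h3c1*. The values of these are uncertain as values of single genes too.

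Levels below are log2 of the processed spot intensity minus the 75th percentile of the array, so 0 is that percentile of the array. Levels of different probes cannot be set against each other. Differences are RA-treated minus untreated on this log2 scale, from limma fitted across all probes with Benjamini-Hochberg adjustment. A gene is said to have risen or fallen when its adjusted p was under 0.05 and its change was over 1.5-fold. With this scaling the median difference of all gene names was -0.28, and 67.8% of the names had a negative difference. Each group held 4 arrays, and every SE is of a difference between them. The replicates come from 1 cell line, and how their cultures relate is not given in the sources used here.

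After RA, 19 of the 49 histone genes fell, 1 rose and 29 passed neither way. Among all 36406 names 22.1% fell and 13.9% rose, so 38.8% of the histone genes fell against 22.1% in the background. Quantile normalization, which moved the median of all names to -0.004, gave 15 lower (30.6%, where 16.3% of all names fell) and the same single gene higher. Among the names that passed either way, it moved the share that rose from 38.6% to 48.9%. The median difference of the histone genes was -0.68, or -0.41 relative to that of all names (-0.21 without untreated replicate 2). In 46 of the 49 the difference was negative. All 4 RA-treated arrays lay below all 4 untreated arrays for 19 histone genes (25.3% of all names) and above them for 1 (15.3% of all names). Of the 45 members well above background on all 8 arrays 18 fell, or 40%, where 27.5% of such names did so. At an unadjusted p under 0.05, 30 members were lower and 1 was higher, where 31.5% and 17.3% of all names were.

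**Figure D1:**
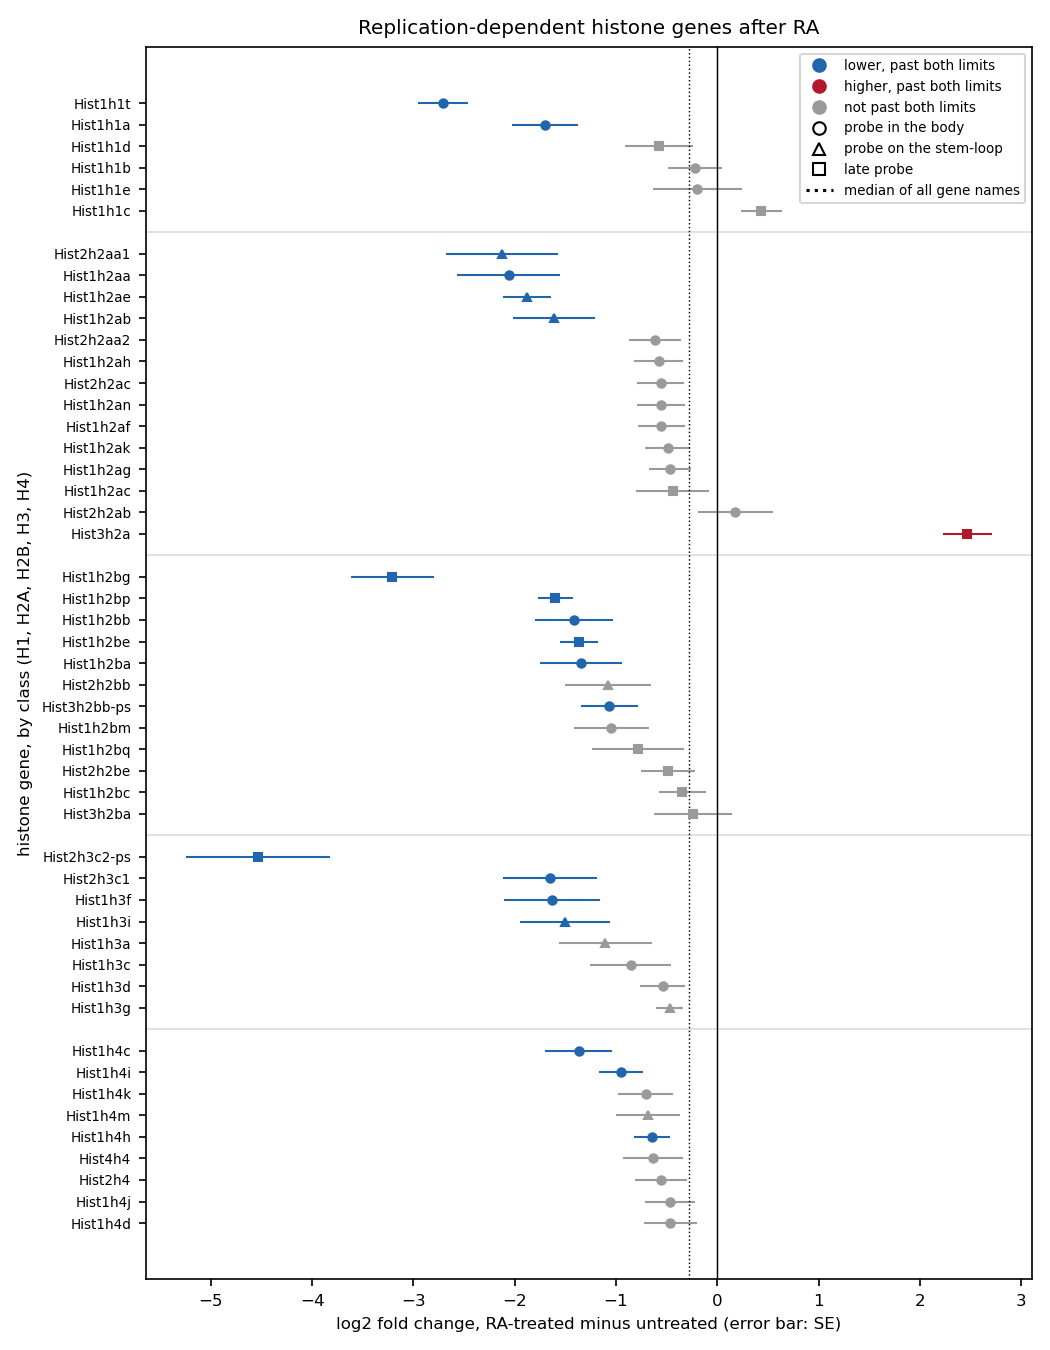
The log2 difference of each of the 49 histone genes between 4 RA-treated and 4 untreated arrays (x axis, with its SE), grouped by histone class, with the colour giving the test and the symbol the place of the probe. The points of 46 genes lie left of 0, 19 of them past both limits, and *Hist3h2a* alone lies past both limits on the right, at 2.47.

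The only histone gene that rose was *Hist3h2a*, an H2A gene of the small *Hist3* cluster. Its levels were -0.94, -1.06, -1.45 and -1.97 on untreated arrays 1 to 4, and 1.10, 0.83, 1.17 and 1.35 on RA-treated arrays 1 to 4. The groups did not overlap, and the lowest RA-treated array was 1.77 above the highest untreated one. The difference was 2.47 ± 0.24 (SE), adjusted p = 7.68e-05, a 5.53-fold rise. It was 2.42 within slide 1 and 2.52 within slide 2. The probe is a late one, starts 767 bases into the transcript and lies at chr11:58768954-58769013 (+ strand) on mm9. *Hist3h2a* rose under each alternative that was run.

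The other genes of the *Hist3* cluster did not follow it. *Hist3h2ba*, an H2B gene, had levels of 1.01, 0.76, 1.55 and 0.86 on untreated arrays 1 to 4, and 0.12, 0.13, 1.75 and 1.20 on RA-treated arrays 1 to 4. RA-treated arrays 3 and 4 lay within or above the untreated range, while 1 and 2 lay below it (-0.24 ± 0.39 (SE), adjusted p = 0.621). *Hist3h2bb-ps*, a pseudogene of the same cluster, was not well above background on any array. It passed both limits with a lower signal after RA (adjusted p = 0.0162), but no fold is given because no array measured it. The call was lost under quantile normalization and with normexp.

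The largest falls among the linker histones were those of *Hist1h1t* and *Hist1h1a*. *Hist1h1t*, the testis-specific H1, had levels of -0.24, -0.13, -0.93 and -1.17 on untreated arrays 1 to 4, and -3.44, -3.20, -3.27 and -3.38 on RA-treated arrays 1 to 4. The groups were 2.03 apart at their nearest arrays, and the RA-treated arrays lay within 0.24 of each other. *Hist1h1t* fell by 2.70 on the log2 scale, or 6.52-fold (adjusted p = 5.17e-05), and by 4.31-fold with normexp and 4.01-fold with the authors' values. *Hist1h1a*, a somatic H1, had levels of 3.14, 2.23, 1.58 and 2.40 on untreated arrays 1 to 4, and 0.20, 0.79, 1.03 and 0.55 on RA-treated arrays 1 to 4, and fell as well (-1.70 ± 0.33 (SE), adjusted p = 0.00322). For both, every RA-treated array was below every untreated array.

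The other 4 H1 genes passed neither way, so 2 of 6 fell (33.3%, where 22.1% of all names did). *Hist1h1b*, whose probe is the brightest of the class, had levels of 5.96, 5.05, 4.89 and 5.81 on untreated arrays 1 to 4, and 4.89, 5.35, 5.27 and 5.33 on RA-treated arrays 1 to 4. Those groups overlapped, and RA-treated array 1 was the lowest of its group (-0.22 ± 0.27 (SE), adjusted p = 0.517). *Hist1h1e* gave -0.20 ± 0.44 (SE), adjusted p = 0.726, with an untreated SD of 0.93, and its difference changed sign without untreated replicate 2 or RA-treated replicate 1. *Hist1h1c*, read by a late probe, was at -1.03, -0.93, -0.50 and -1.13 before RA and at -0.45, -0.86, -0.34 and -0.19 after it (0.43 ± 0.20 (SE), adjusted p = 0.125). *Hist1h1d* was not well above background on any array. The median of the 6 H1 genes was -0.40, and it was 0.001 with normexp background correction followed by quantile normalization, so no direction can be given for the class.

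Among the H2A genes 4 fell, 1 rose and 9 passed neither way, with a median of -0.56 (-0.15 under quantile normalization). The share that fell was 28.6%, near the 22.1% of all names. The 4 that fell are the testis-specific *Hist1h2aa* and the 3 genes whose probes hold stem-loop letters, of which *Hist1h2ae* and *Hist2h2aa1* are read mostly past the stem-loop and start 541 and 488 bases into the transcript. *Hist1h2aa* had levels of -0.20, -0.001, -2.34 and -1.84 on untreated arrays 1 to 4, and -3.13, -3.21, -3.46 and -2.82 on RA-treated arrays 1 to 4, and fell with no overlap (-2.06 ± 0.51 (SE), adjusted p = 0.0118). *Hist1h2ae* had levels of -1.76, -1.74, -2.50 and -2.31 on untreated arrays 1 to 4, and -4.10, -3.48, -4.15 and -4.08 on RA-treated arrays 1 to 4. All RA-treated arrays were below all untreated ones, and the difference was -1.88 ± 0.24 (SE), adjusted p = 3.19e-04. It was -1.21 with normexp and -1.04 with the authors' values. *Hist1h2ab* had levels of 7.35, 7.45, 5.62 and 6.48 on untreated arrays 1 to 4, and 4.68, 5.60, 5.16 and 5.03 on RA-treated arrays 1 to 4, with the groups only 0.02 apart at their nearest arrays (-1.61 ± 0.41 (SE), adjusted p = 0.0129).

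*Hist2h2aa1* had levels of 2.05, 1.25, 2.29 and 1.19 on untreated arrays 1 to 4, and -1.16, 0.49, 0.64 and -1.69 on RA-treated arrays 1 to 4. It fell (-2.13 ± 0.55 (SE), adjusted p = 0.0146), but the RA-treated arrays split by slide: arrays 1 and 4, on slide 1, lay well below arrays 2 and 3, on slide 2. Its difference was -3.60 within slide 1 and -0.66 within slide 2. The probe that stands for *Hist2h2aa2* lists the transcripts of 2 histone genes. The array design places it at chr3:96049837-96049896 (+ strand) on mm9, next to that of *Hist2h2aa1* at chr3:96049949-96050008 (+ strand). RefSeq lists *Hist2h2aa2* on the - strand. This probe reads the coding end and gave -0.62 ± 0.26 (SE), adjusted p = 0.0939, which is not a value of *Hist2h2aa2* alone.

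Of the H2A members 8 are read near the coding end, by probes that start 327 to 367 bases into the transcript. *Hist1h2ah*, the brightest of the class, had levels of 9.28, 9.12, 8.26 and 9.17 on untreated arrays 1 to 4, and 8.20, 8.64, 8.37 and 8.29 on RA-treated arrays 1 to 4. Untreated arrays 1, 2 and 4 lay above all RA-treated arrays, and untreated array 3 lay among them (-0.58 ± 0.24 (SE), adjusted p = 0.0899). *Hist1h2af*, *Hist1h2ag*, *Hist1h2ak*, *Hist1h2an*, *Hist2h2aa2* and *Hist2h2ac* had differences of -0.55, -0.47, -0.49, -0.55, -0.62 and -0.56, and untreated array 3 was the lowest of its group in each. With the scaling used here and all arrays, none of these 7 passed. Under quantile normalization all 7 differences were smaller, the largest being that of *Hist1h2ah* at -0.24, and again none passed. With normexp background correction *Hist2h2aa2* alone of the 7 passed. All 7 passed without untreated replicate 3.

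The eighth gene read there, *Hist2h2ab*, did not pass either way with or without that array. It was at -4.76, -3.98, -5.10 and -3.98 before RA and at -5.22, -4.03, -3.90 and -3.96 after it. The groups overlapped (0.18 ± 0.37 (SE), adjusted p = 0.707), and the sign turned without untreated replicate 3 and with normexp background correction. *Hist1h2ac* was well above background on 3 untreated and 2 RA-treated arrays and gave -0.44 ± 0.36 (SE), adjusted p = 0.331.

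Of the 12 H2B genes 6 fell and none rose, a share of 50% where 22.1% of all names fell. Of the 6, *Hist3h2bb-ps* was not above background. Under quantile normalization 3 of 12 fell (25%), where 16.3% of all names did. The median was -1.07 (-0.92 under quantile normalization). The largest fall was that of *Hist1h2bg*, read by a late probe at chr13:23663823-23663882 (+ strand) on mm9. Its levels were -0.48, -0.55, -0.82 and -1.28 on untreated arrays 1 to 4, and -4.30, -3.98, -2.80 and -4.87 on RA-treated arrays 1 to 4. RA-treated array 3 was the highest of its group, and still lay below every untreated array. *Hist1h2bg* fell by 3.21 on the log2 scale, or 9.25-fold (adjusted p = 3.29e-04), by 3.94 within slide 1 and by 2.48 within slide 2. With normexp the fall was 4.96-fold and with the authors' values 4.51-fold.

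*Hist1h2bp* and *Hist1h2be*, also read by late probes, fell with little spread. *Hist1h2bp* had levels of -2.72, -2.67, -2.50 and -2.95 on untreated arrays 1 to 4, and -4.05, -4.15, -4.40 and -4.62 on RA-treated arrays 1 to 4 (-1.60 ± 0.17 (SE), adjusted p = 1.42e-04). *Hist1h2be*, whose probe holds a poly(A) signal, had levels of -2.40, -2.69, -2.79 and -2.39 on untreated arrays 1 to 4, and -4.16, -4.21, -3.74 and -3.61 on RA-treated arrays 1 to 4 (-1.36 ± 0.19 (SE), adjusted p = 5.54e-04). For both the groups were well apart, and the differences were -0.82 and -0.72 with normexp and quantile. The other 4 late H2B probes, of *Hist1h2bc*, *Hist1h2bq*, *Hist2h2be* and *Hist3h2ba*, had differences of -0.34, -0.78, -0.49 and -0.24 and passed neither way.

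*Hist1h2ba*, the testis-specific H2B, had levels of 3.87, 4.10, 2.14 and 2.99 on untreated arrays 1 to 4, and 1.88, 1.83, 2.28 and 1.72 on RA-treated arrays 1 to 4. Untreated array 3 lay below RA-treated array 3, so the groups overlapped, and the fall (-1.35 ± 0.40 (SE), adjusted p = 0.0274) was lost under quantile normalization. *Hist1h2bb* had levels of -1.76, -1.45, -3.39 and -2.61 on untreated arrays 1 to 4, and -3.76, -3.73, -3.57 and -3.80 on RA-treated arrays 1 to 4, and its fall (-1.41 ± 0.38 (SE), adjusted p = 0.0181), with no overlap, was lost in that way as well (-0.73 with normexp and quantile). *Hist1h2bm*, the brightest H2B probe, had levels of 4.28, 4.59, 2.76 and 3.42 on untreated arrays 1 to 4, and 2.65, 2.72, 2.90 and 2.60 on RA-treated arrays 1 to 4 and did not pass (-1.04 ± 0.37 (SE), adjusted p = 0.0525), nor did *Hist2h2bb* (-1.08 ± 0.42 (SE), adjusted p = 0.0749).

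The H3 genes had the largest median difference of the 5 classes, at -1.31 in 8 genes, of which 4 fell and none rose. That share, 50% where 22.1% of all names fell, was 12.5% (1 gene) without untreated replicate 1 or without RA-treated replicate 1, and 25% without RA-treated replicate 4. The lowest value was that of *Hist2h3c2-ps*, which the array design calls a pseudogene and RefSeq now lists as the H3 gene *H3c15*. The array design gives its probe no genome position, so the gene rests on the transcript that the design names. Its levels were 2.36, 1.06, 2.49 and 1.81 on untreated arrays 1 to 4, and -3.56, -2.48, -0.45 and -3.91 on RA-treated arrays 1 to 4. The untreated arrays lay between 1.06 and 2.49 and the RA-treated ones spread over 3.46, with array 3 the highest. It fell by 4.53 on the log2 scale (adjusted p = 0.00104), by 6.16 within slide 1 and by 2.90 within slide 2. The difference was -3.90 with normexp, -3.77 with the authors' values and -5.25 without RA-treated replicate 3.

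*Hist2h3c1*, of the same cluster, had levels of 4.17, 5.11, 2.63 and 3.48 on untreated arrays 1 to 4, and 1.92, 2.44, 2.34 and 2.08 on RA-treated arrays 1 to 4 (-1.65 ± 0.46 (SE), adjusted p = 0.0208). *Hist1h3i* had levels of 1.53, 2.06, -0.29 and 0.66 on untreated arrays 1 to 4, and -0.59, -0.44, -0.49 and -0.54 on RA-treated arrays 1 to 4 (-1.51 ± 0.44 (SE), adjusted p = 0.0256). The RA-treated arrays of *Hist1h3i* lay within 0.16 of each other, while the untreated ones spread over 2.34. *Hist1h3f* fell in the same way, from 0.30, 1.52, -0.98 and -0.50 to -1.68, -1.56, -1.39 and -1.56 (-1.63 ± 0.47 (SE), adjusted p = 0.0236).

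The other H3 genes passed neither way. *Hist1h3g* had levels of 0.60, 0.61, 0.64 and 0.42 on untreated arrays 1 to 4, and 0.03, 0.21, 0.16 and -0.02 on RA-treated arrays 1 to 4. Its groups did not overlap and its adjusted p was 0.0208, but the difference of -0.47 was under 1.5-fold. *Hist1h3d*, the brightest H3 probe, had levels of 6.87, 7.23, 6.21 and 6.80 on untreated arrays 1 to 4, and 6.04, 6.14, 6.40 and 6.37 on RA-treated arrays 1 to 4 (-0.54 ± 0.22 (SE), adjusted p = 0.0887). *Hist1h3a* and *Hist1h3c* had differences of -1.11 and -0.86.

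Of the 9 H4 genes 3 fell and none rose, a share of 33.3% where 22.1% of all names fell. Under quantile normalization 2 fell (22.2%, where 16.3% of all names did). Their differences had the narrowest range of the core histones, from -1.37 to -0.46 with a median of -0.65 (-0.46 under quantile normalization). *Hist1h4c* had levels of 1.73, 1.75, 0.38 and 0.77 on untreated arrays 1 to 4, and -0.49, -0.36, 0.09 and -0.08 on RA-treated arrays 1 to 4 (-1.37 ± 0.33 (SE), adjusted p = 0.0102). *Hist1h4i* gave -0.95 ± 0.21 (SE), adjusted p = 0.00762. *Hist1h4h* passed narrowly (-0.65 ± 0.17 (SE), adjusted p = 0.0182), which is 0.37 below the median of all names, and was lost under quantile normalization.

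*Hist1h4k*, the brightest H4 probe, had levels of 6.89, 7.17, 6.14 and 7.07 on untreated arrays 1 to 4, and 5.63, 6.52, 6.11 and 6.19 on RA-treated arrays 1 to 4. Untreated array 3 lay within the RA-treated range (-0.70 ± 0.27 (SE), adjusted p = 0.0722). *Hist2h4* gave -0.56 ± 0.26 (SE), adjusted p = 0.124 and *Hist4h4*, the single member of its cluster, -0.63 ± 0.29 (SE), adjusted p = 0.125. With the slide as a block *Hist1h4k* and *Hist4h4* passed as lower, and 5 of 9 H4 genes fell (55.6%, where 22.4% of all names did). *Hist1h4m*, *Hist1h4j* and *Hist1h4d* had differences of -0.68, -0.47 and -0.46. The 5 genes with a second probe, *Hist1h4i*, *Hist1h2ak*, *Hist1h4k*, *Hist4h4* and *Hist2h4*, had no second probe of the opposite sign, but that of *Hist1h4i* holds the repeat named above, that of *Hist4h4* was not well above background on any array and that of *Hist2h4*, at -0.18, lay above the median of all names.

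**Figure D2:**
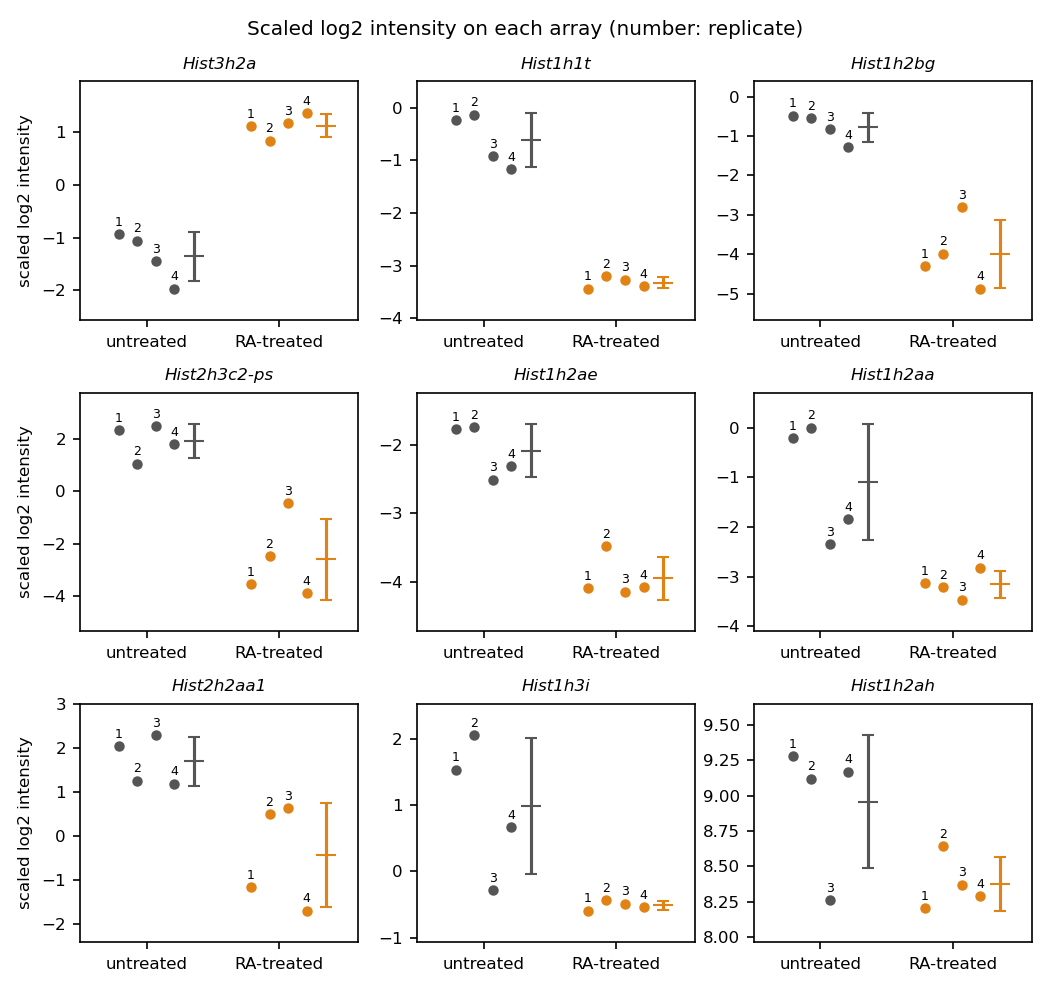
Scaled log2 intensity of 9 histone genes on each of the 4 untreated and 4 RA-treated arrays (points, numbered by replicate), with the mean and SD of each group beside them and a separate y axis for each gene. *Hist3h2a* rose, 7 genes fell, the RA-treated arrays of *Hist2h3c2-ps* and *Hist2h2aa1* were widely spread, and untreated array 3 of *Hist1h2ah* and *Hist1h3i* lay well below the other untreated arrays.

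Untreated array 3 lay low for most members. Over the 45 members well above background on all arrays, untreated array 3 was the lowest of the untreated arrays in 33, where it was so in 38.3% of all 20388 names of that kind without a missing value. Its median deviation from the mean of the untreated arrays was -0.64 over the members and -0.08 over all such names. The median SD of these 45 members was 0.51 over the untreated and 0.25 over the RA-treated arrays, against 0.27 and 0.19 over all such names. Of all its spots 62.7% were well above background.

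The pattern was not the same for the 3 places of the probe, which is given as a description with no test. Untreated array 3 was the lowest untreated array in 26 of 28 genes with a body probe and 6 of 8 with a stem-loop probe, but in 1 of 9 with a late probe. Its median deviation was -0.68, -0.93 and 0.23 in these 3 sets. With late probes untreated array 4 was the lowest in 6 of 9. In the RA-treated group array 1 was the lowest in 25 of the 45 genes, 21 of them with body probes. Untreated array 3 was also the lowest untreated one for 25 of the 34 S-phase DNA synthesis genes described below (median deviation over the 34 of -0.26). It was so for 14 of 27 histone mRNA transcription and processing factors (-0.15), 11 of 26 chaperones (-0.12) and 4 of 12 replication-independent histone genes (-0.16), where untreated array 2 was the lowest in 5. The parts of S phase, of the oligo-dT priming and of RNA quality in the histone values of this array were not tested.

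**Figure D3:**
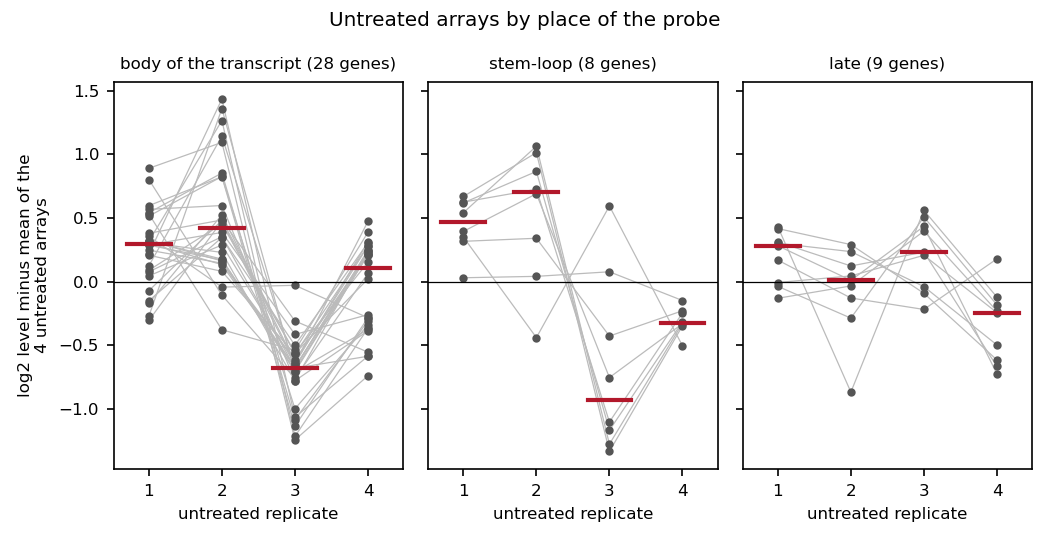
The level of each histone gene on the 4 untreated arrays (x axis) minus its mean over them (y axis, log2 scale), in 3 panels by the place of the probe; grey lines join a gene and red bars are medians. Replicate 3 is low for body probes (median -0.68, 28 genes) and stem-loop probes (-0.93, 8 genes) and not for late probes (0.23, 9 genes).

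Without untreated replicate 3 the number of histone genes that fell was 35 of 49 (71.4%, where 23.2% of all names fell without it), and *Hist3h2a* was still the only one that rose. All 19 genes were among the 35, and 16 were gained. The gain was in body probes, from 11 to 24 of 29, and in stem-loop probes, from 4 to 7 of 8, while late probes stayed at 4 of 12. By class the counts went from 4 to 11 of 14 for H2A, from 6 to 8 of 12 for H2B, from 4 to 6 of 8 for H3 and from 3 to 8 of 9 for H4, and stayed at 2 of 6 for H1. The 7 H2A genes gained are all read near the coding end, where many H2A genes cannot be told apart, so they are not separate cases. Leaving out any other single array gave 13 to 22 lower. The lowest of these, 13, was without untreated replicate 1, where body probes went to 6 of 29. Without untreated replicate 4 late probes went to 7 of 12.

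The 6 falls lost without untreated replicate 1 were those of *Hist1h2ba*, *Hist1h2bb*, *Hist1h3f*, *Hist1h3i* and *Hist2h3c1*, with adjusted p of 0.0744, 0.0512, 0.0606, 0.0708 and 0.0566, and of *Hist1h4h*, whose difference of -0.53 was then under 1.5-fold. The differences of the others were then -1.148, -1.232, -1.56, -1.326 and -1.545, in the same order. *Hist1h2ba* was also lost without untreated replicate 2 or RA-treated replicate 1, 2 or 4 (adjusted p = 0.0598 to 0.0657). *Hist1h3i* was lost without RA-treated replicate 1, 3 or 4 (0.052 to 0.0571) and *Hist1h3f* without RA-treated replicate 1 or 4 (0.0548 and 0.0503). *Hist2h3c1* was lost without RA-treated replicate 1 (0.0528) and *Hist1h4h* without RA-treated replicate 3 (0.0545). The differences of these genes stayed negative in each case, and the other 13 falls passed whichever array was left out.

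**Figure D4:**
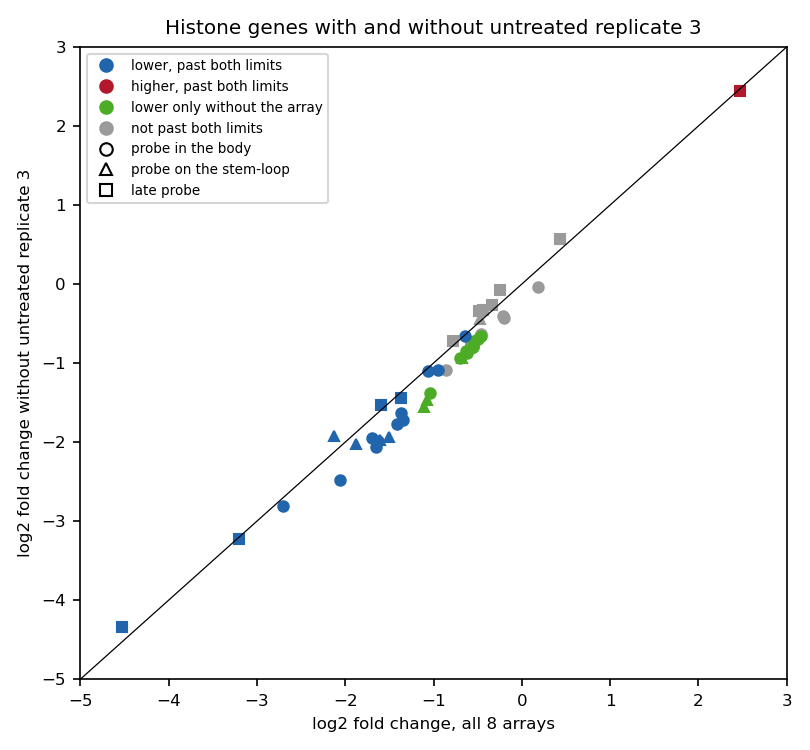
The log2 difference of the 49 histone genes with all 8 arrays (x axis) and without untreated replicate 3 (y axis), with the diagonal; both axes share the other 7 arrays. Green points are the 16 genes that passed only without this array, none of them read by a late probe.

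With all arrays, 4 of the 8 genes with a stem-loop probe fell (50%, median -1.31), 11 of 29 with a body probe (37.9%, median -0.63) and 4 of 12 with a late probe (33.3%, median -0.53), where 22.1% of all names fell. Under quantile normalization 4 of 8 (50%), 7 of 29 (24.1%) and 4 of 12 (33.3%) fell, in the same order, with medians of -1.20, -0.45 and -0.27. *Hist1h2ae* and *Hist2h2aa1* gave the lowest stem-loop differences, -1.88 and -2.13. Their probes start past the limit for late probes and lie mostly beyond the stem-loop. The order of the stem-loop and late shares therefore depends on the set these 2 are placed in. The late probes held both ends of the range, from *Hist2h3c2-ps* at -4.53 to *Hist3h2a* at 2.47. Class and place of the probe were not independent, since 7 of the 12 late probes belong to H2B genes and 8 of the 9 H4 genes have body probes. By cluster, 15 of 36 *Hist1* (41.7%) and 3 of 9 *Hist2* genes (33.3%) fell, with medians of -0.74 and -0.62. Of the 13 genes whose probes list several histone genes 2 fell (15.4%, below the 22.1% of all names), with a median of -0.58. Of the other 36 genes 17 fell (47.2%, above it) and 1 rose, with a median of -0.90.

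In RefSeq (GRCm38.p6) 43 of the 49 genes had a promoter entry. Of these, 3 pairs run away from each other, on opposite strands, from starts within 1000 bases, a limit chosen after the positions were seen. *Hist1h2ba* and *Hist1h2aa*, the testis-specific H2B and H2A, start 281 bases apart and both fell. The 250 bases before the start of *Hist1h2aa*, at chr13:23934187-23934436 (+ strand), lie between both starts and are shown because both genes of the pair fell. Capitals there mark 3 promoter motifs on either strand, which are the TATA box TATAAA, the box named for its letters CCAAT, and the octamer ATTTGCAT.
Hist1h2aa: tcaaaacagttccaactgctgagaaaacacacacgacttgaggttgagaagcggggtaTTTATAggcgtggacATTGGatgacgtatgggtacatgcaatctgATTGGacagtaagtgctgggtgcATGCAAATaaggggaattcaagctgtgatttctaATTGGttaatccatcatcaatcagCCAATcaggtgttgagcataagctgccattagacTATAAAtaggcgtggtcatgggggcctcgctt
The same letters were marked before *Hist3h2a*, at chr11:58954435-58954684 (+ strand), shown because that gene rose.
Hist3h2a: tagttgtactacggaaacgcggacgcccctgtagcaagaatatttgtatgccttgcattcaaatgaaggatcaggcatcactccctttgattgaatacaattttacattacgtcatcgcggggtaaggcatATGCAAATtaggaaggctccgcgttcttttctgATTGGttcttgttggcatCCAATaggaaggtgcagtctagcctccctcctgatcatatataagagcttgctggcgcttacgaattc

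*Hist1h2ae* and *Hist1h2bg*, which start 180 bases apart, also both fell (-1.88 and -3.21). In the remaining pair, 240 bases apart, *Hist1h2bp* fell and *Hist1h2an* did not pass (-1.60 and -0.55). The probe of the first is a late one and that of the second a body probe, and whether these partners differ was not tested.

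The promoter letters differed by class. Over the 300 bases of each entry, from 250 before to 50 after the start, CCAAT was present in 86.4% of the 44 histone entries and in 37.4% of all 32851 entries, with both strands searched. It was present in all H1, H2A, H2B and H3 entries and in 25% of those of H4. The octamer ATTTGCAT was found in 50% of the H2A and 60% of the H2B entries and in none of the other classes, against 1.74% of all entries. TATAAA was found in 59.1% against 13.6%. *Hist3h2a* has CCAAT and the octamer and no TATAAA in this window.

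The replication-independent histone genes were read beside them, 15 of the 17 listed being on the array. Of these 2 rose and 2 fell (13.3% each, where 13.9% and 22.1% of all names did), with a median difference of -0.52. *H2afy2*, which encodes a macroH2A, had levels of 3.08, 2.79, 2.99 and 2.92 on untreated arrays 1 to 4, and 4.01, 3.91, 4.43 and 4.33 on RA-treated arrays 1 to 4 and rose with no overlap (1.23 ± 0.16 (SE), adjusted p = 4.25e-04). *H1f0*, the linker histone of non-dividing cells, had levels of -3.74, -4.58, -2.57 and -3.08 on untreated arrays 1 to 4, and -2.38, -2.74, -1.53 and -1.70 on RA-treated arrays 1 to 4, which overlapped (1.41 ± 0.45 (SE), adjusted p = 0.0349). The call of its rise was lost without untreated replicate 1 or 2 or RA-treated replicate 1, 3 or 4 (adjusted p = 0.0522 to 0.0888). The difference was then between 1.046 and 1.506.

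*H2afz*, which encodes H2A.Z, had levels of 8.19, 7.89, 7.75 and 8.16 on untreated arrays 1 to 4, and 7.22, 7.49, 7.33 and 7.38 on RA-treated arrays 1 to 4 and fell (-0.64 ± 0.15 (SE), adjusted p = 0.0103), with no overlap. By the brightest probe of each gene, *H2afz* was the only gene above background in this list that fell, though the second probe of *H2afj*, given below, was lower as well. The call of *H2afz* was lost under quantile normalization and, at -0.57 and -0.58, without untreated replicate 1 or 4. *H1fnt* passed on the low side but was not well above background on any array. *H2afx*, *H2afy*, *H3f3a*, *H3f3b*, *H1fx* and *Cenpa* had differences of -0.48, 0.55, 0.09, -0.12, -0.52 and -0.55 and did not pass both limits. *H2afy* did so with normexp and quantile and with the authors' values. The sign of *H3f3a* and *H3f3b*, which encode H3.3, depended on the setting.

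*H2afj* is a case of its own, because its brighter probe lies at the coding end like those of the H2A members and differs from that of *Hist1h2ah* at 9 of 53 bases. This probe had levels of 8.98, 8.81, 7.85 and 8.86 on untreated arrays 1 to 4, and 7.87, 8.28, 7.93 and 7.91 on RA-treated arrays 1 to 4, with untreated array 3 again the lowest (-0.63 ± 0.26 (SE), adjusted p = 0.0879). The second probe starts 1664 bases into the transcript. It had levels of 2.07, 1.52, 1.41 and 1.46 on the untreated arrays and of -0.02, -0.05, -0.28 and -0.32 on the RA-treated ones. There the groups did not overlap, and *H2afj* was lower by 1.78 ± 0.18 (SE, n = 4 per group, adjusted p = 0.000101 from limma). The share of *Hist* transcripts in the signal of the first probe was not tested.

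Of the 29 transcription and processing factors on the array, 6 fell and none rose, a share of 20.7%, with a median difference of -0.33. This is near the 22.1% of all names and below the 27.5% of names well above background on all arrays, as 27 of these 29 were. *E2f1*, a transcription factor of the G1 to S transition, had levels of 2.54, 2.47, 2.27 and 2.81 on untreated arrays 1 to 4, and 1.03, 1.42, 1.28 and 1.04 on RA-treated arrays 1 to 4 (-1.33 ± 0.17 (SE), adjusted p = 3.06e-04). *Zfp473*, a component of the histone pre-mRNA cleavage machinery, had levels of 2.66, 2.87, 2.04 and 2.54 on untreated arrays 1 to 4, and 1.32, 1.66, 1.24 and 1.30 on RA-treated arrays 1 to 4 (-1.15 ± 0.20 (SE), adjusted p = 0.00202). For both the groups did not overlap.

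*Cpsf2*, *Lsm11* and *Snrpg*, of the cleavage complex and the U7 or spliceosomal snRNPs, gave -0.89, -0.63 and -0.59. *Npat*, the coactivator of histone gene transcription, passed on the low side, but was well above background on 1 untreated and on no RA-treated array. Its change is therefore given as a bound, at least 1.36-fold lower. Its difference was -0.26 with normexp and -0.03 with normexp and quantile, and the call was lost with both, under quantile normalization, and without untreated replicate 2 or RA-treated replicate 3 (-0.57 in both). *Slbp*, the stem-loop binding protein, had levels of 2.54, 2.69, 2.53 and 2.97 on untreated arrays 1 to 4, and 2.61, 2.45, 2.66 and 2.35 on RA-treated arrays 1 to 4, which overlapped (-0.16 ± 0.16 (SE), adjusted p = 0.409). *Casp8ap2*, a partner of Npat, gave -0.36 ± 0.15 (SE), adjusted p = 0.0854. The largest positive differences, of *Mblac1* and *Yeats2*, were 0.40 and 0.39, and neither passed.

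Among 26 histone chaperones and their partners 5 fell (19.2%, where 27.5% of names well above background on all arrays did, as these 26 are) and 2 rose, with a median of -0.10. *Daxx*, the H3.3 chaperone, had levels of 5.66, 5.58, 5.06 and 5.45 on untreated arrays 1 to 4, and 3.93, 4.04, 4.34 and 3.90 on RA-treated arrays 1 to 4 (-1.39 ± 0.18 (SE), adjusted p = 3.72e-04), and *Tonsl* fell as well (-1.10 ± 0.16 (SE), adjusted p = 5.72e-04). *Chaf1b*, *Hjurp* and *Cabin1* fell by 0.90, 0.77 and 0.73. *Rbbp7*, a histone-binding subunit of several chromatin complexes, had levels of 5.98, 5.53, 5.56 and 5.67 on untreated arrays 1 to 4, and 6.94, 6.84, 6.54 and 6.76 on RA-treated arrays 1 to 4 and rose (1.08 ± 0.16 (SE), adjusted p = 7.83e-04), as did *Npm2* (1.11 ± 0.21 (SE), adjusted p = 0.00266). *Chaf1a*, of the CAF-1 complex, and *Asf1b* gave -0.55 and -0.49 and did not pass both limits.

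Of 34 genes of S-phase DNA synthesis 16 fell and none rose, with a median of -0.60. All 34 were well above background on all arrays, and the share that fell was 47.1%, where 27.5% of such names did. *Mcm5*, of the replicative helicase, had levels of 6.14, 5.98, 5.96 and 6.24 on untreated arrays 1 to 4, and 4.35, 4.49, 4.55 and 4.53 on RA-treated arrays 1 to 4 (-1.60 ± 0.14 (SE), adjusted p = 3.50e-05). *Fen1*, the flap endonuclease, had levels of 5.98, 5.73, 5.33 and 5.58 on untreated arrays 1 to 4, and 4.19, 4.45, 4.39 and 4.30 on RA-treated arrays 1 to 4 (-1.32 ± 0.17 (SE), adjusted p = 3.25e-04). In both every RA-treated array was below every untreated array. *Pcna*, the sliding clamp, had non-overlapping groups but a difference of -0.57, just under 1.5-fold (adjusted p = 0.0339). The 2 genes with the largest positive values, *Rfc3* and *Ung*, gave 0.40 and 0.22 and did not pass.

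**Figure D5:**
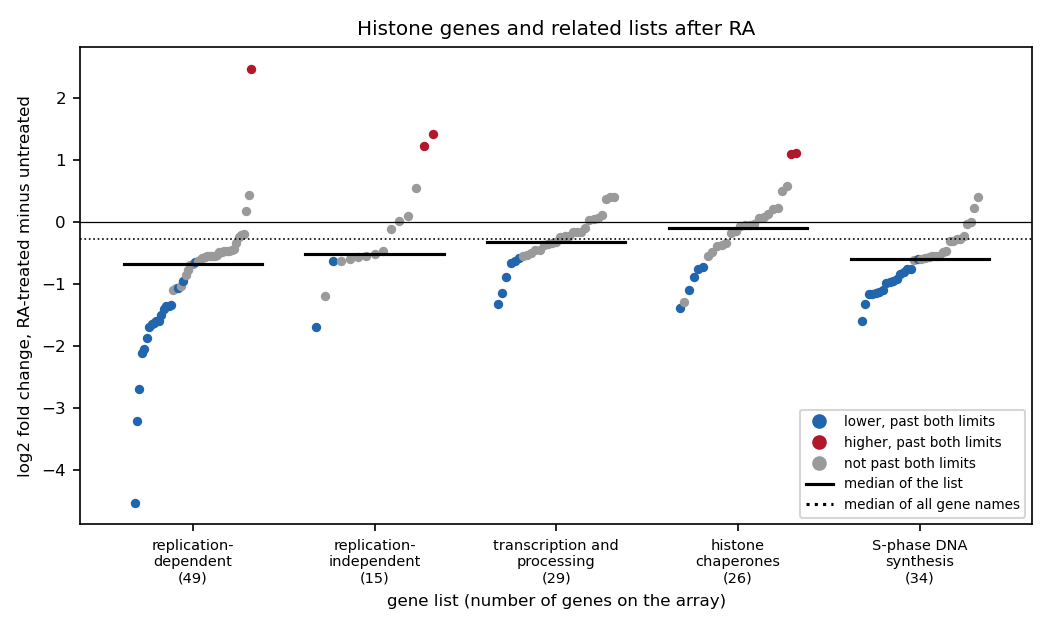
The log2 difference of each gene (points) in the replication-dependent histone genes (49) and in the lists of replication-independent histone genes (15), transcription and processing factors (29), histone chaperones (26) and S-phase DNA synthesis genes (34), with the median of each list as a bar and that of all names as a dotted line. The medians are -0.68, -0.52, -0.33, -0.10 and -0.60, against -0.28 for all names.

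Over the whole series, 56.7% to 62.7% of the spots of each array were well above background, no spot was saturated, and the number of arrays limits the precision. The markers of the labelled cell type were present, since all 10 ES cell markers were well above background on all arrays and fell after RA. All 6 RA response genes, all 6 primitive endoderm markers, 5 of 6 fibroblast and 3 of 5 trophoblast markers rose, while 1 trophoblast marker (*Tfap2c*) fell, and 1 of 6 neural markers rose and 1 fell. The testis-specific histones *Hist1h1t*, *Hist1h2aa* and *Hist1h2ba* fell beside *Prm1*, which fell by at least 6.57-fold, but *Prm2* and *Tnp1* did not pass, and *Tnp2* and *Acrv1* were not well above background on any array. The part of changing cell types in the histone values was not tested.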

How the data were processed

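The deposited scanner tables of the 8 Agilent arrays, written by Feature Extraction (version 10.7.3.1, probes on mm9), hold processed intensity (background-corrected, not scaled between arrays), raw spot and background intensity, and flags of 0 or 1, which are scores of detection. The authors also deposited log2 values for the same spots with 1 common distribution. The background and normalization steps behind them are not given in the sources used here.

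In R (version 4.3.3), log2 of the processed intensity minus the 75th percentile of each array over 59305 non-control spots was taken. The 3671 control spots and outlier spots (124 to 145 per array) were left out, spots of a probe were averaged to 55681 probes, and no filter on dim probes was applied. Groups came from the labels, and no array was left out. A linear model in limma (version 3.58.1) with moderated variances gave the difference between 4 RA-treated and 4 untreated arrays, which the submitters call biological replicates, with Benjamini-Hochberg adjustment over all probes and a limit of 1.5-fold. A gene name takes its brightest probe.

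Genes named in the text are up to 12 members with the largest increase (1 passed) and the 12 with the largest decrease past both limits, the brightest of each class, members outside *Hist1*, and set companion genes with the 2 largest changes of each list in each direction. Other members were named after their values were seen. The members and lists were chosen with earlier results of these data known. Current names matched for 48 of the 49 members, and promoters (43 members) are from RefSeq, GRCm38.p6.

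Each slide held 2 arrays of each group. As a check of pairing, the deviations of untreated and RA-treated arrays from their group means had correlations of 0.186, 0.189, 0.104 and 0.151 for numbers 1 to 4 over 27515 probes. Each is over 0.1, though 2 of the unequal pairs (0.142 and 0.13) are above the lowest of them. The numbers were not used in the comparison reported, and entered as a block in 1 alternative. On simulated data for this comparison (55640 probes), the fit recovered 29 of 100 probes changed by 1 on the log2 scale and 76 of 100 changed by 2, with 8 false calls. The settings varied were the scaling, the background correction, the authors' log2 values, a filter on dim probes, slide and replicate blocks, all probes of a gene averaged, limma's treat, and leaving out each array.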

Additional observations from a re-analysis of the deposited data

Results flagged for a closer look

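Among 154 groups of 4 arrays examined (77 genes, both conditions), 15 had 1 array far from the other 3, where chance gives about 1 in 20, or 7.7. Untreated array 3 stood apart on the low side, in scaled log2 intensity, for *Hist1h2ah* (8.26), *Hist1h2ak* (7.88), *Hist1h2an* (7.73), *Hist2h2aa2* (7.75), *Hist2h2ac* (7.75) and *H2afj* (7.85), whose probes resemble each other and so are not separate cases, and for *Asf1b* (2.96). It stood apart on the high side for *Yeats2* (3.29). RA-treated array 1 was low for *Hist1h1b* (4.89), *Hist1h1e* (2.78) and *Hist2h2ab* (-5.22). RA-treated array 2 was high for *Hist1h2ae* (-3.48) and *H2afj* (8.28) and low for *Yeats2* (3.35). Untreated array 4 was low for *Hist1h2ac* (-6.20), which was well above background on only 3 untreated arrays.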

How the results depend on the processing

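None of the 20 histone genes that passed changed direction under any alternative run. The number that fell, 19, was 15 with quantile normalization, 22 with normexp, 16 with normexp and quantile and with the authors' values, 21 with the filter on dim probes and with the slide as a block, 20 with all probes averaged, and 7 with treat, which tests against 1.5-fold and so passes fewer genes by construction. Leaving out each array gave 13 to 35, the highest without untreated replicate 3. *Hist3h2a* rose in all. With the replicate number as a block 19 fell and 1 rose, the same genes, and no call of a member changed. The median of the members relative to all names stayed below 0 (-0.58 to -0.21 over the left-out arrays) and was smallest, -0.21, without untreated replicate 2.

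Replication-independent histone genes that fell, 2, were 1 with quantile normalization, the filter or treat, 0 with normexp and quantile or the authors' values, 4 with probes averaged and 1 to 4 over left-out arrays (1 without untreated replicate 1, 4 without untreated replicate 3). Those that rose, 2, were 3 with normexp and quantile, the authors' values or probes averaged, 1 with treat and 1 to 2 over left-out arrays (1 without untreated replicate 1 or RA-treated replicate 1, 3 or 4). Processing factors that fell, 6, were 3 with normexp and quantile or the authors' values, 1 with treat and 4 to 7 over left-out arrays. Under treat 1 chaperone rose and 2 fell, 6 S-phase genes fell, and of all names 3032 rose (5074) and 3826 fell (8057). The last was 4796 with normexp and quantile and 4784 with the authors' values.

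Signs turned only for genes that had not passed: *Hist1h1b* (0.04, 0.034 and 0.033 with quantile, normexp and quantile, and the authors' values), *H3f3b* (0.15, 0.14 and 0.14 with these, 0.24 with probes averaged), *Hist1h1d* (0.083 with normexp and quantile, 0.075 with the authors' values), *Hist2h2ab* (-0.079 with normexp, -0.036 to 0.49 over left-out arrays, lowest without untreated replicate 3), *Hist1h1e* (-0.44 to 0.26 over left-out arrays, above 0 without untreated replicate 2 or RA-treated replicate 1) and *H3f3a* (-0.002 to 0.17 over left-out arrays, below 0 without untreated replicate 2). The cause was not tested.

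Signal over background limits *Hist1h1d*, *Hist3h2bb-ps*, *Hist1h2ac* and *Hist1h2bq*, which were not well above background on every array.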
